A study of Homo sapiens with 20 samples.

Results

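The heterogeneous nuclear ribonucleoprotein (hnRNP) genes HNRNPDL, HNRNPD, HNRNPA1, HNRNPA2B1, HNRNPC, HNRNPH1, HNRNPH3, HNRNPK, HNRNPM and HNRNPR were followed through the splicing and RNA immunoprecipitation (RIP) data of HepG2, a line grown from a human liver tumour. The 10 genes were taken by symbol out of 28278 listed genes, and every skipped exon event carrying one of these symbols was kept. They were chosen by name with an earlier result in view, the rise in inclusion of an HNRNPDL exon after treatment with U3 ASO. That rise is given here as a description without a p, and its call in the fit below only restates the selection. Of the 10 genes, 8 had an event and HNRNPH1 and HNRNPR had none, which left these 2 genes with RIP values alone. The 8 genes held 86 of the 59847 events listed over 3 splicing tables, and the 86 events concerned 44 of 31955 distinct exons. All 86 member events passed the minimum of 10 junction reads per library on average.

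The 20 samples formed 8 groups of HepG2 cells. Poly(A)-selected RNA was sequenced 48 h after control siRNA (siCtrl2) or siRNA against FUBP1 (siFUBP1), and 72 h after an antisense oligonucleotide (ASO) against GFP as control or against U3, with 3 libraries in each group. FUBP1 is a KH-domain RNA-binding splicing factor, and U3 is a box C/D small nucleolar RNA needed for processing of ribosomal RNA. FUBP1 RIP and matched input were sequenced 48 h after control siRNA (siCtrl) or siRNA against FBL (siFBL), with 2 libraries in each of the 4 groups. FBL, or fibrillarin, is the 2′-O-methyltransferase of box C/D ribonucleoproteins. The methods call the libraries biological replicates, every group came from the same cell line, and each depletion had its own control group.

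The junction reads of a library are here those counted over the listed skipped exon events, and a junction shared by events counts each time. FUBP1 junction reads were 50.5 ± 5.44 per 1000000 such reads of the library in siCtrl2. In siFUBP1 they were 7.52 ± 3.09 per 1000000 (SD, n = 3), or 14.9% of control. FBL had a mean normalized count of 1034 in the siCtrl RIP comparison and of 164 in the siFBL one, each scaled separately by the authors. FUBP1 itself had mean normalized counts of 14257 and 8689 in these comparisons, and the part of this in the RIP values below was not tested. The level of U3 itself was not analysed here. FUBP1 junction reads were 59.9 ± 3.68 per 1000000 under GFP ASO and 41.5 ± 2.53 per 1000000 under U3 ASO (SD, n = 3), and the part of this in the results below was not tested. In the siCtrl RIP comparison, the 7 hepatocyte-lineage genes examined (ALB, AFP, APOA1, APOB, TTR, SERPINA1 and FGB) had mean counts from 3544 upwards. The 5 genes of other lineages examined had mean counts from 5.51 to 33.2 there. In units of 1000000 reads, junction reads per library ranged from 2.69 to 4.47 for siFUBP1 and siCtrl2. The ASO libraries ranged from 11.2 to 13.3. The input libraries ranged from 0.911 to 1.14 and were thus the least precise. These totals also depend on the number of events listed, which was 19792, 32990 and 7065 in the same order.

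The hnRNPs package nascent transcripts and influence which exons are spliced in, how long a transcript lasts and where it goes. Many of them control their own amount through an alternative exon whose inclusion or skipping exposes the transcript to nonsense-mediated decay (NMD). HNRNPD and HNRNPDL are close relatives that bind AU-rich RNA, HNRNPA1 and HNRNPA2B1 often promote exon skipping, HNRNPC binds runs of uridine, HNRNPH1 and HNRNPH3 bind runs of guanosine, HNRNPK binds cytidine-rich RNA through KH domains, HNRNPM binds GU-rich RNA, and HNRNPR is a relative of SYNCRIP.

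Sequences of the exons on which the results turn are shown 5′ to 3′ on the strand of the gene, from build hg38, with exon bases in capitals and intron bases in lower case. The HNRNPDL exon at chr4:82425563-82425667 on the minus strand is 105 bases long. In GENCODE release 44 it belongs to 3 transcripts, all of them annotated as NMD targets, in which it lies in the 3′ UTR, and 5 coding transcripts skip it. Its 3′ and 5′ splice sites, at chr4:82425662-82425687 and chr4:82425543-82425568, show where the regulated exon begins and ends.
HNRNPDL 105-base exon, 3′ splice site: accttgtttgtacccgccagCGGGAA
HNRNPDL 105-base exon, 5′ splice site: CCTGTGgtatggtctcttccaacttc

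The HNRNPDL exon of 171 bases, at chr4:82426463-82426633, is exon 6 of the canonical transcript. It lies wholly within the coding sequence of 8 of the 9 transcripts that contain it and in the 3′ UTR of the other. The HNRNPH3 exon of 139 bases, at chr10:68337858-68337996 on the plus strand, is exon 3 of the canonical transcript and is coding. Since its length is not a multiple of 3, transcripts that skip this exon alone change reading frame. Both are shown because skipping of each rose under U3 ASO.
HNRNPDL 171-base exon, chr4:82426453-82426643: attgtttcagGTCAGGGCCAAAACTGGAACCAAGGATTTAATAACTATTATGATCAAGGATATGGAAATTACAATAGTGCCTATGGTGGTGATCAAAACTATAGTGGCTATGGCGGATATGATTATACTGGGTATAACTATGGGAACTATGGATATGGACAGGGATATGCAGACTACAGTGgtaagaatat
HNRNPH3 139-base exon, chr10:68337848-68338006: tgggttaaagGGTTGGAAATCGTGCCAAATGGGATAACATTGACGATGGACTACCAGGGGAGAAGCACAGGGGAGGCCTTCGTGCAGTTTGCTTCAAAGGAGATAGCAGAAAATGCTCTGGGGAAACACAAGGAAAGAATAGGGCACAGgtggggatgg

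The HNRNPA2B1 exon of 36 bases, at chr7:26197831-26197866 on the minus strand, distinguishes the longer B1 protein from the A2 protein and is annotated in 12 transcripts, within the coding sequence of 9 of them and in the 5′ UTR of 2. The HNRNPD exon of 147 bases, at chr4:82356537-82356683 on the minus strand, is exon 7 of the canonical transcript and one of the alternative exons that set apart the AUF1 protein isoforms. These exons are shown because their inclusion was lower in every depleted library than in every control library after siFUBP1, without a call in the fit over all events.
HNRNPA2B1 36-base exon, chr7:26197821-26197876: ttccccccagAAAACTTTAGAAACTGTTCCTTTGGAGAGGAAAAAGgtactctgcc
HNRNPD 147-base exon, chr4:82356527-82356693: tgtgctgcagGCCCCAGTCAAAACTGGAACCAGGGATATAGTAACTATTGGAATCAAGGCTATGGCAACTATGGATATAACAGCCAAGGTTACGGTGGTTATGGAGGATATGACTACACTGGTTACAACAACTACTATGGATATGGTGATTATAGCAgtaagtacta

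The 44 member exons had a median length of 114.5 bases, against 117 bases for all 31955 listed exons. A length that is a multiple of 3 was found for 27 of the 44 (61.4%), against 41.5% of all listed exons. Some of the 44 share a splice site, such as the HNRNPH3 exons of 140, 167 and 185 bases, so they are not independent. In the 50 intron bases before the exon the median share of T was 39% for the members and 38% for all exons.

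The question asked of the splicing tables was which exons changed when FUBP1, U3 or FBL was depleted. The inclusion level of an exon is the share of transcripts containing it, from 0 to 1, computed in each library from the reads over inclusion and skipping junctions after each count was divided by its effective length. A change is the mean level after depletion minus the mean level in control. Events were tested with a quasi-binomial fit to the inclusion and skipping reads of all events of a table, and an event was called at a Benjamini-Hochberg adjusted p below 0.1.

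After U3 ASO, the alternative 3′ UTR exon of HNRNPDL was included more and a coding exon of the same gene, together with a coding exon of HNRNPH3, was skipped more. Of the 47 member events tested these 3 were called, 2 lower and 1 higher, the latter being the event on which the genes were selected. Of all 30109 events tested 0.186% were called, but 2 of the 3 member calls were in HNRNPDL, the gene picked for this contrast, so nothing is read from that share. In limma fits to the log2 odds of inclusion 0 of the 47, and 0 of all events, were called. In the quasi-binomial fit the other 44 member events were not called, and 32 of the 47 had mean levels above 0.98 in both groups. The median change of the members was -0.00125, against -0.00355 over all tested events. Groups did not overlap in 7 of the 47 member events, against 6.03% of all tested events, and 6 of the 47 had an unadjusted p below 0.05, against 3.25% of all tested events. These counts too include the HNRNPDL exons. The member events had a median of 1753 junction reads per library, against 124.5 over all tested events, so these comparisons are not like for like. Many events share an exon or junction, so they are not independent: the 47 events concerned 41 exons.

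The 105-base exon of HNRNPDL had inclusion levels of 0.0135, 0.0287 and 0.0123 in the GFP ASO libraries and 0.149, 0.207 and 0.203 in the U3 ASO libraries. Every U3 ASO library was far above every GFP ASO library, and the mean went from 0.0182 ± 0.00917 to 0.186 ± 0.0327 (SD, n = 3), a change of 0.168. Both kinds of reads moved. Inclusion reads were 14, 36 and 17 under GFP ASO and 137, 202 and 196 under U3 ASO, while reads that skip the exon were 601, 714 and 803 under GFP ASO and 460, 453 and 451 under U3 ASO. Relative to all junction reads listed for a library, inclusion reads were thus 8.06 times as high and skipping reads 0.656 times as high as in control. These values are those on which the genes were selected.

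The 171-base exon of HNRNPDL, which is usually included, had levels of 0.9797, 0.992 and 0.999 under GFP ASO and 0.921, 0.936 and 0.933 under U3 ASO. All U3 ASO libraries were lower, with a change of -0.0605 between means of 0.990 ± 0.00995 and 0.930 ± 0.00826 (SD, n = 3). Skipping reads were 28, 13 and 1 under GFP ASO and 89, 71 and 78 under U3 ASO. Inclusion reads were 2709, 3309 and 3469 under GFP ASO and 2065, 2091 and 2165 under U3 ASO. As it is the same gene in the contrast that selected HNRNPDL, no p is given for it. The 2 other HNRNPDL exons listed in this table, of 132 and 169 bases, were included at mean levels of 0.997 or above in both groups.

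The 139-base exon of HNRNPH3 had levels of 0.927, 0.933 and 0.908 under GFP ASO and 0.785, 0.827 and 0.837 under U3 ASO, again without overlap. The mean fell from 0.923 ± 0.0129 to 0.816 ± 0.0279 (SD, n = 3), a change of -0.106 (adjusted p = 0.0439, quasi-binomial fit). Skipping reads rose from 39, 47 and 59 to 148, 130 and 140, while inclusion reads were 963, 1257 and 1126 in control and 1043, 1202 and 1393 after depletion. Relative to all junction reads listed for a library, skipping reads were 2.95 times and inclusion reads 1.10 times the control. This call is near the threshold. With any one of 5 of the 6 libraries left out it was lost, with adjusted p values of 0.140 and 0.500 without GFP ASO libraries 1 and 2, and of 0.457, 0.158 and 0.129 without U3 ASO libraries 1, 2 and 3. It was kept, at 0.0790, without GFP ASO library 3.

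**Figure D1:**
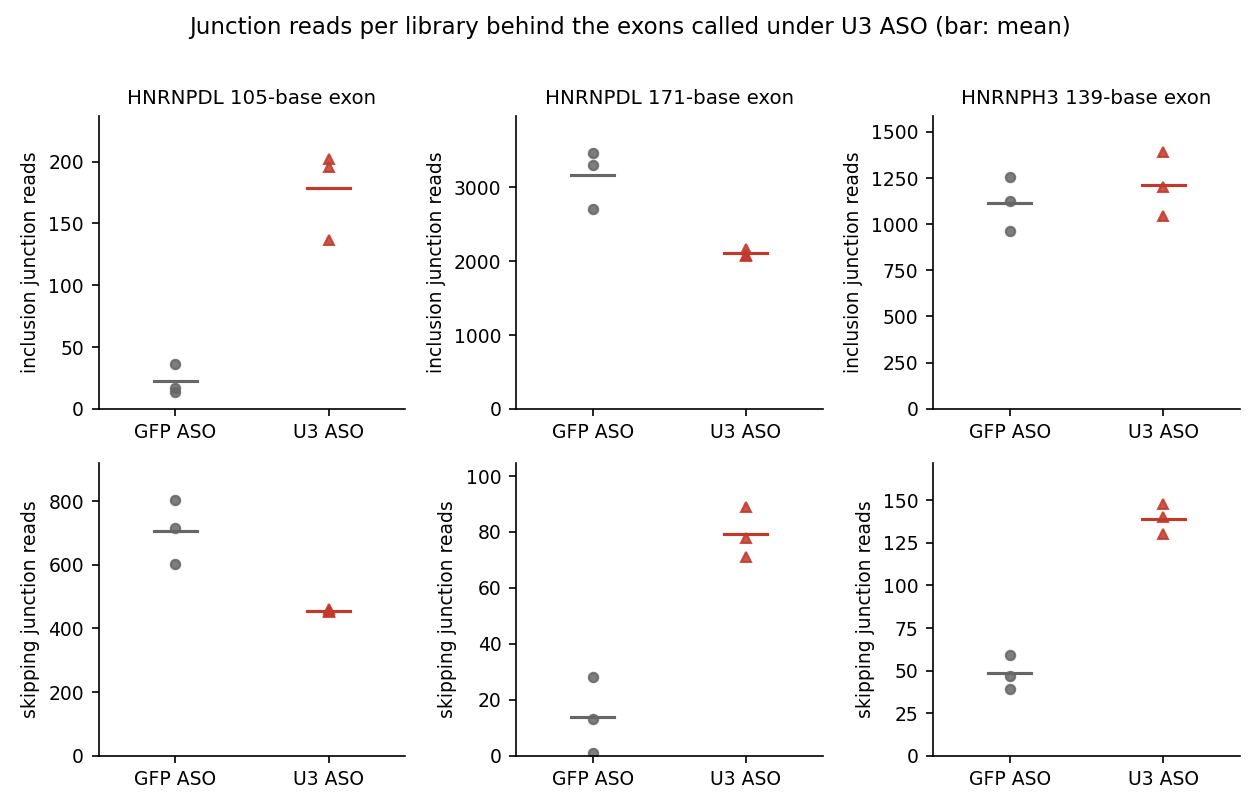
Junction reads per library for the 3 hnRNP exons called under U3 ASO, with GFP ASO as grey circles, U3 ASO as red triangles and the group mean as a bar. The upper row gives inclusion reads and the lower row skipping reads on linear axes from 0. For the HNRNPDL 105-base exon inclusion reads were 14 to 36 under GFP ASO and 137 to 202 under U3 ASO, and for both other exons skipping reads were higher in every U3 ASO library.

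The remaining hnRNP exons were not called under U3 ASO. The 36-base exon of HNRNPA2B1 had levels of 0.224, 0.247 and 0.210 under GFP ASO and 0.206, 0.174 and 0.187 under U3 ASO, all lower but close to control (change -0.0380, adjusted p = 0.364). The 147-base exon of HNRNPD, with levels of 0.365 to 0.421 under GFP ASO and 0.367 to 0.409 under U3 ASO, overlapped (adjusted p = 0.868). The 156-base exon of HNRNPA1, which adds glycine-rich sequence in the longer A1B protein, was included at 0.0524 to 0.0673 under GFP ASO and 0.0615 to 0.0687 under U3 ASO (adjusted p = 0.868). The 26-base exon of HNRNPC, which lies in the 5′ UTR, had mean levels of 0.727 ± 0.0159 and 0.700 ± 0.0293 (SD, n = 3, adjusted p = 0.868).

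The 72-base exon of HNRNPK had mean levels of 0.905 ± 0.0180 under GFP ASO and 0.885 ± 0.0151 under U3 ASO (SD, n = 3, adjusted p = 0.868), and the 54-base exon of HNRNPM 0.901 ± 0.0327 and 0.864 ± 0.0320 (SD, n = 3, adjusted p = 0.868). These group ranges overlapped. A 161-base exon of HNRNPC, outside the rule for named exons and singled out after its values were seen, had 58 skipping reads in U3 ASO library 1 and 0 skipping reads in each of the 5 other libraries (adjusted p = 0.377). Its change of -0.0153 therefore came from 1 library.

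After siFUBP1, none of the 24 member events was called in the quasi-binomial fit, where 0.154% of 16213 tested events were. Of the 24, 2 had an unadjusted p below 0.05, against 3.57% of all tested events. The same 2 were the events whose groups did not overlap, against 5.05% of all tested events. Inclusion was lower in 14 and higher in 10, with a median change of -0.000526 against -0.00139 over all tested events. With a median of 616 junction reads per library for the member events and 60 for all tested events, these comparisons are not like for like. In limma fits to the log2 odds of inclusion 0 of the 24 were called. The share over all events in these fits is not given here, so nothing is read from this about the members.

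The 36-base exon of HNRNPA2B1 came nearest. Its levels were 0.194, 0.198 and 0.180 in siCtrl2 and 0.158, 0.152 and 0.133 in siFUBP1, with no overlap. The mean went from 0.190 ± 0.00960 to 0.148 ± 0.0132 (SD, n = 3), a change of -0.0426 at 3796 junction reads per library (adjusted p = 0.104). With a minimum of 20 reads per event, which left fewer events to adjust over, the adjusted p was 0.0904. Relative to all junction reads listed for a library, inclusion reads were 0.755 times and skipping reads 1.02 times the siCtrl2 mean.

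The 147-base exon of HNRNPD had levels of 0.563, 0.566 and 0.616 in siCtrl2 and 0.303, 0.432 and 0.563 in siFUBP1. The siFUBP1 libraries were spread widely, and library 3 lay just below the lowest control. The change of -0.149, from 0.582 ± 0.0299 to 0.432 ± 0.130 (SD, n = 3), had an adjusted p of 0.330 and was -0.0845 without siFUBP1 library 1. The other alternative HNRNPD exon, of 57 bases, had levels from 0.781 to 0.924 in siCtrl2 and from 0.655 to 0.833 in siFUBP1, which overlapped.

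The 105-base HNRNPDL exon called under U3 ASO had levels of 0.115, 0.163 and 0.318 in siCtrl2 and 0.117, 0.321 and 0.208 in siFUBP1 (adjusted p = 0.836). The groups lay over the same range at 138.5 reads per library, with no common direction. Its level in siCtrl2 was above that under GFP ASO in every library, and the U3 ASO levels lay inside the siCtrl2 range. These control groups differ in reagent, time of harvest and table, so the difference between them was not tested and its source cannot be told apart. For the 171-base HNRNPDL exon 13 skipping reads were found in siFUBP1 library 1 and 0 in the 5 other libraries.

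The 139-base HNRNPH3 exon had levels of 0.941, 0.951 and 0.877 in siCtrl2 and 0.900, 0.899 and 0.895 in siFUBP1, which overlapped (adjusted p = 0.836). Those of HNRNPA1, HNRNPC, HNRNPK and HNRNPM with the most information overlapped too. Their mean levels in siCtrl2 and siFUBP1 were 0.0604 and 0.0616 for the 156-base exon of HNRNPA1, 0.821 and 0.788 for the 26-base exon of HNRNPC, 0.891 and 0.903 for the 72-base exon of HNRNPK, and 0.959 and 0.937 for the 45-base exon of HNRNPM.

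After siFBL, none of the 15 member events was called in the quasi-binomial fit, and 0% of the 5208 events tested in this table were. Over all 5208 events 76 had an unadjusted p below 0.05, or 1.46%, of which 0 were member events, and limma fits to the log2 odds called 0 events. Groups of 2 libraries did not overlap in 5 of the 15 member events, against 13.8% of all tested events. The median change of the members was 0.00578, against -0.00337 over all tested events. As the median depth was 92.5 junction reads per library for the members and 40 for all tested events, these comparisons are not like for like.

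The 36-base HNRNPA2B1 exon had levels of 0.181 and 0.223 in siCtrl input and 0.128 and 0.147 in siFBL input, lower in both libraries (change -0.0649, adjusted p = 0.897). The 147-base HNRNPD exon had 0.563 and 0.694 in siCtrl input and 0.424 and 0.519 in siFBL input (change -0.156, adjusted p = 0.897). Both exons had lower levels in every depleted library of this table and of the siFUBP1 table, and for HNRNPA2B1 also under U3 ASO, without a call in any of them. The HNRNPD exon overlapped under U3 ASO (change -0.0145). The 3 tables share no library, but both exons were set beside each other because their siFUBP1 groups did not overlap. With 2 libraries per group, 13.8% of all tested events of this table did not overlap.

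The 3 other events without overlap did not share a direction. The 156-base HNRNPA1 exon was lower, with levels of 0.0500 and 0.0807 in siCtrl input and 0 and 0.0270 in siFBL input at 92.5 reads per library (adjusted p = 0.897). The 26-base HNRNPC exon was higher, with 0.577 and 0.580 in siCtrl input and 0.710 and 0.591 in siFBL input (change 0.0718, adjusted p = 0.897). The 54-base HNRNPM exon was also higher, at 0.988 and 0.790 in siCtrl input and 1 and 1 in siFBL input (change 0.111, adjusted p = 0.897). The 72-base HNRNPK exon and the 45-base HNRNPM exon overlapped, with changes of 0.0733 and -0.0652 (adjusted p = 0.897 for both).

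The 105-base HNRNPDL exon could not be measured well in the input libraries. It had 16 inclusion and 0 skipping reads in siCtrl library 1, 3 and 15 in siCtrl library 2, 11 and 0 in siFBL library 1, and 24 and 14 in siFBL library 2. The levels of 1, 0.105, 1 and 0.501 spread over nearly the whole scale within siCtrl. A change of the size seen under U3 ASO was not detectable at this depth. The 171-base HNRNPDL exon was not listed in this table, and the 139-base HNRNPH3 exon had 13 skipping reads in siCtrl library 1 and 0 in the other 3 libraries.

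**Figure D2:**
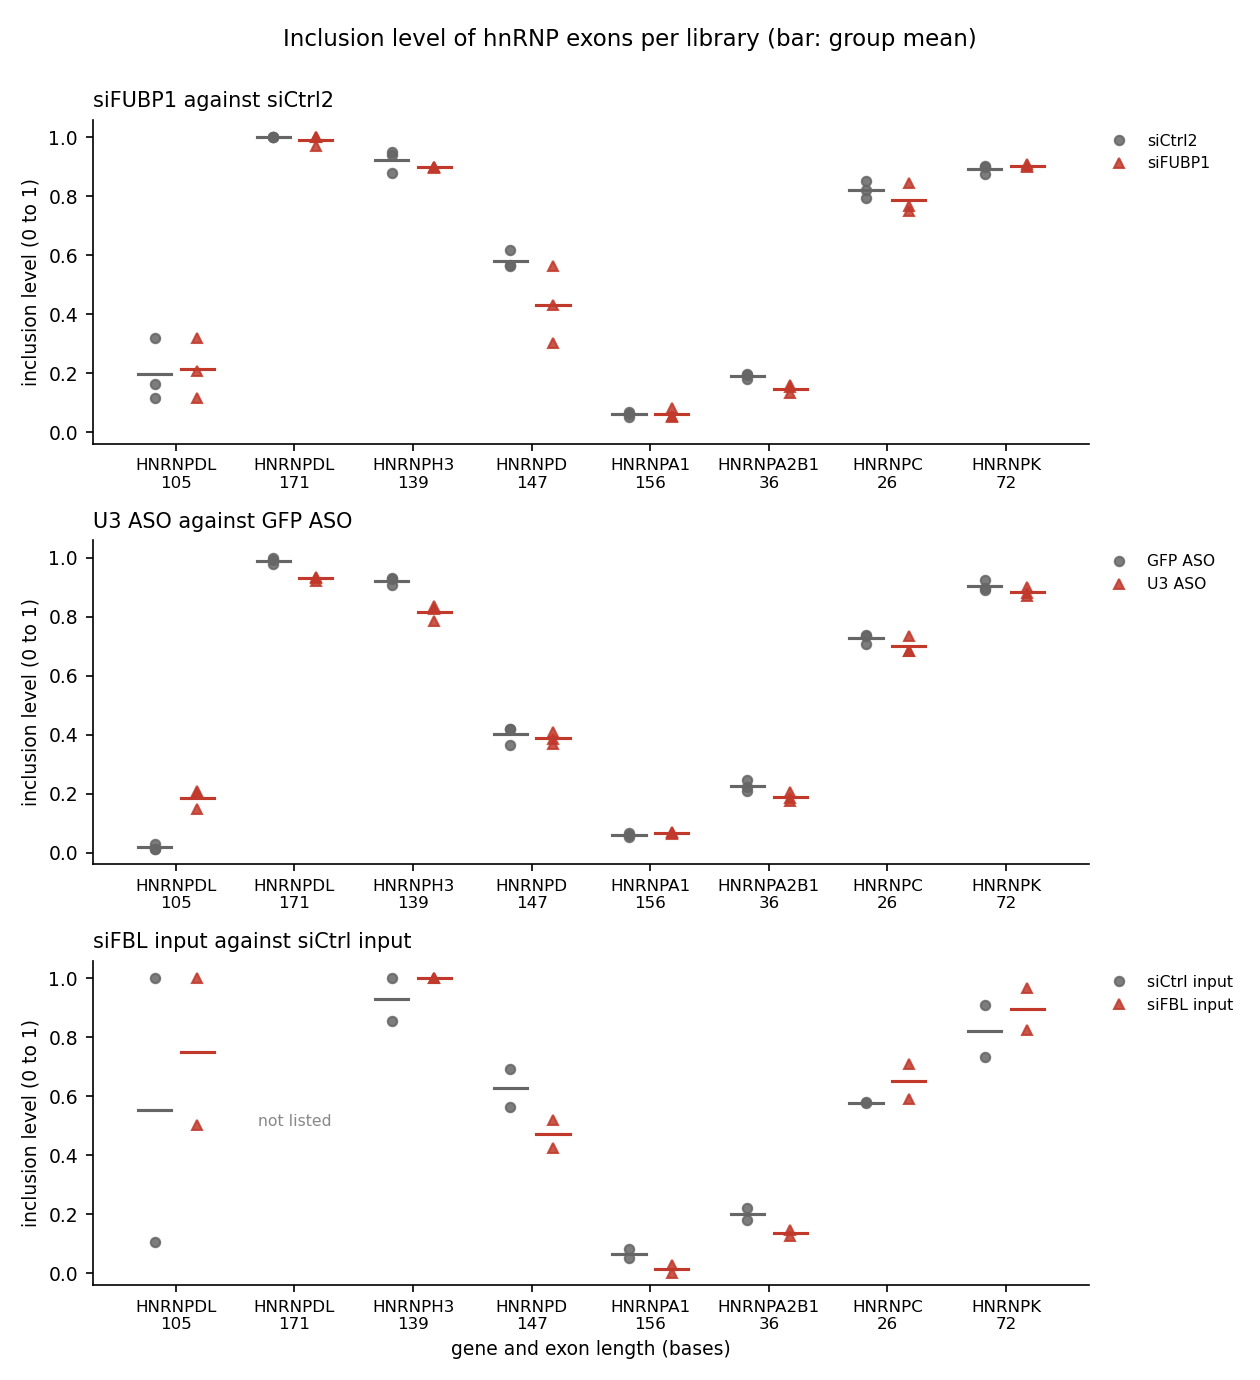
Inclusion level (0 to 1) in each library for 8 hnRNP exons, named by gene and length in bases, in the 3 splicing tables. Grey circles are control libraries, red triangles depleted libraries and bars group means, and an exon without a row in a table is marked as not listed. The HNRNPDL 105-base exon was at 0.0123 to 0.0287 under GFP ASO and 0.149 to 0.207 under U3 ASO, and overlapped between groups in the other 2 tables.

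Of 22 other hnRNP family genes and relatives listed, 16 had an event. None of their 44, 61 and 30 events tested in the siFUBP1, U3 ASO and siFBL tables was called in the quasi-binomial fit or in the limma fits, and 0, 2 and 1 of them had an unadjusted p below 0.05. Of all events tested in these tables, 0.154%, 0.186% and 0% were called in the quasi-binomial fit. An unadjusted p below 0.05 in that fit was found for 3.57%, 3.25% and 1.46% of all tested events. At such shares nothing is read from these counts about the family genes. The median changes of the family events were 0.00202, -0.00107 and -0.00352.

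The junction reads of a gene, summed over its listed events and given per 1000000 junction reads of the library, show how much of its spliced RNA was sampled, although a junction shared by several events counts more than once. The sums are shares of the junction reads listed for a library. A lower amount in every cell and a much lower amount in some of the cells thus cannot be told apart. With 3 libraries against 3 the smallest two-sided p of an exact permutation test is 0.1, and with 2 against 2 it is 0.3333, so none of the 24 comparisons could pass the threshold. Groups did not overlap for 4 of the 8 member genes in each table, against 25.8% of all genes with at least 10 reads per library after siFUBP1, 49.5% under U3 ASO and 43.7% after siFBL. Under U3 ASO and after siFBL the members' share was thus near that of all genes and is no result about them. In siCtrl2 the members had means from 206 to 1306 per 1000000, while all genes were taken from 10 reads per library upwards. The siFUBP1 shares are therefore not like for like and are not read as a result about the members either. HNRNPA1 and HNRNPC have many near-identical processed pseudogenes, and how reads matching several places were counted is not given in the sources used here, so their sums are uncertain.

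Under U3 ASO, HNRNPDL junction reads were 845, 864 and 813 per 1000000 in the GFP ASO libraries and 640, 642 and 614 per 1000000 in the U3 ASO libraries, or 75.2% of control. HNRNPA1 was at 3060, 3172 and 2909 per 1000000 in control and 2166, 2185 and 2085 per 1000000 after U3 ASO, or 70.4%. HNRNPH3 went the other way, from 227, 256 and 244 per 1000000 to 348, 365 and 355 per 1000000, or 147% of control. None of these groups overlapped (exact permutation p = 0.1 for HNRNPA1 and for HNRNPH3).

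HNRNPM, at 91.7% of control, also did not overlap (exact permutation p = 0.1). The sums of HNRNPD, HNRNPA2B1, HNRNPC and HNRNPK overlapped, at 94.9%, 107%, 94.5% and 98.7% of the GFP ASO mean. The 6 HNRNPH3 events behind its sum did not move alike. Inclusion reads of the 139-base exon were 1.10 times control and overlapped (exact permutation p = 0.2). Those of the 5 other events were 1.54 to 2.80 times control without overlap (exact permutation p = 0.1 each). The events with exons of 135, 140, 167 and 185 bases count as inclusion the junction that skips the 139-base exon. Reads over that junction were 2.95 times control. The rise of these events thus partly recounts that skipping, which enters the HNRNPH3 sum more than once. The event with the 96-base exon does not use this junction, and its inclusion reads were 1.58 times control.

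After siFUBP1, HNRNPDL, HNRNPA1, HNRNPC and HNRNPK were lower without overlap (exact permutation p = 0.1 each), at 86.0%, 86.7%, 77.8% and 88.7% of the siCtrl2 mean. HNRNPC was the lowest of them, with 1074, 1154 and 1076 per 1000000 in siCtrl2 and 839, 939 and 792 per 1000000 in siFUBP1. HNRNPD, HNRNPA2B1, HNRNPH3 and HNRNPM overlapped, at 81.8%, 95.3%, 111% and 87.7%.

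In the input libraries, HNRNPA1, HNRNPC, HNRNPH3 and HNRNPM were lower without overlap after siFBL (exact permutation p = 0.3333 each), at 48.6%, 83.8%, 65.3% and 76.0% of siCtrl. HNRNPH3 was at 179 and 203 per 1000000 in siCtrl and 110 and 139 per 1000000 in siFBL. HNRNPDL, HNRNPD, HNRNPA2B1 and HNRNPK overlapped. The HNRNPH3 sums cover 2 events here and 6 events in the U3 ASO table, so they are not compared.

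**Figure D3:**
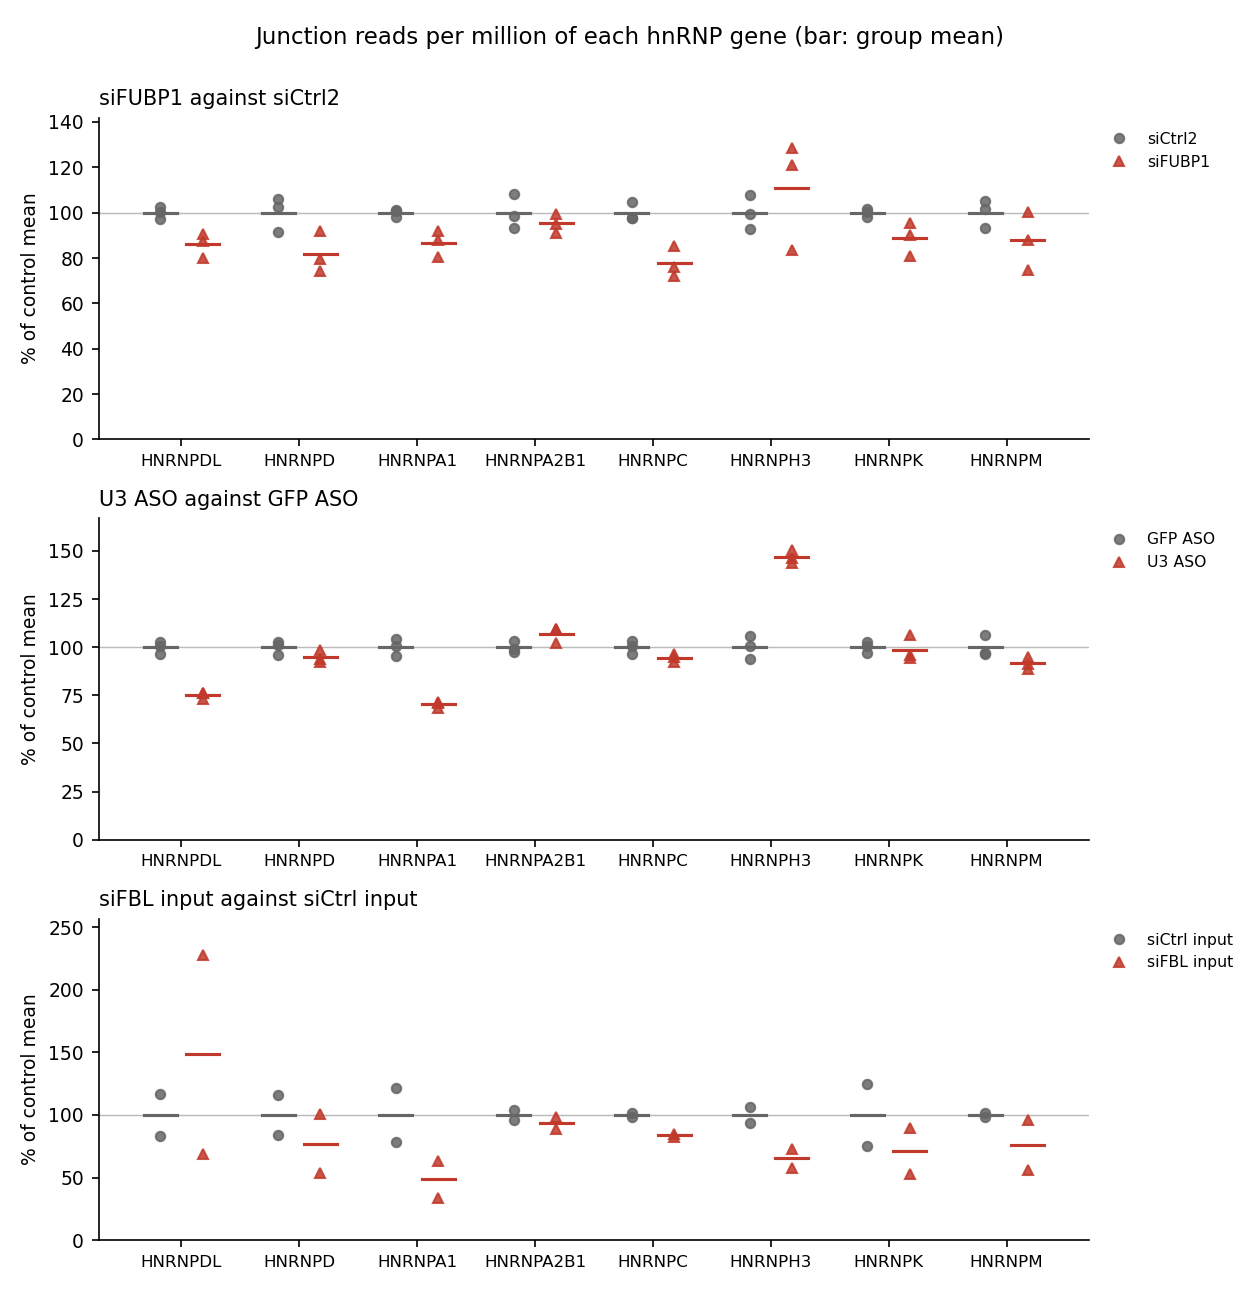
Junction reads per 1000000 of 8 hnRNP genes in each library, as a percentage of the mean of the control group in the same table, on linear axes from 0. Grey circles are control libraries, red triangles depleted libraries, and bars group means. Under U3 ASO the means of HNRNPDL and HNRNPA1 were 75.2% and 70.4% of control and that of HNRNPH3 was 147%.

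The RIP data asked which transcripts were recovered with FUBP1, and whether recovery changed when FBL was depleted. The measure is the log2 ratio of FUBP1 RIP over input as deposited, with its standard error (SE), for the genes whose mean count reached 50. It was estimated from 2 RIP and 2 input libraries in each condition, and no value per library was analysed. Of the 10 hnRNP genes, 9 had a ratio above 0 in siCtrl and 9 in siFBL, where 52.3% and 52.1% of the 11581 genes did. The median log2 ratio in siCtrl was 1.38 for the hnRNP genes and 0.154 for all genes. It was 0.14 for 21 other hnRNP family genes, of which 12 were above 0. The 10 genes had mean counts from 6099 upwards, against a minimum of 50 for all genes. Their share above 0 and their median are therefore not like for like with those of all genes. The samples held no RIP with a control antibody.

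HNRNPDL had the highest ratio of the 10 in siCtrl, 2.63 ± 0.0606 on the log2 scale (SE), or 6.17-fold, at percentile 90.7 of all genes. It was followed by HNRNPR at 1.95 ± 0.0628, HNRNPH1 at 1.76 ± 0.0498, HNRNPH3 at 1.60 ± 0.0804, HNRNPC at 1.42 ± 0.0637 and HNRNPA2B1 at 1.33 ± 0.0457 (log2 ratio, SE). HNRNPA1, HNRNPD and HNRNPK had lower ratios of 0.96 ± 0.0392, 0.85 ± 0.0639 and 0.77 ± 0.0616. HNRNPM alone was below 0, at -0.57 ± 0.0520, so its transcripts were less frequent in the RIP than in the input. Neighbours in this order differed by less than 2 combined SE for HNRNPH1 and HNRNPH3, HNRNPH3 and HNRNPC, HNRNPC and HNRNPA2B1, HNRNPA1 and HNRNPD, and HNRNPD and HNRNPK.

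After siFBL the ratio of HNRNPDL was 2.54 ± 0.0932, and the difference from siCtrl of -0.09 ± 0.111 (log2, combined SE) was smaller than its error. HNRNPA2B1 and HNRNPK differed by 0.00270 ± 0.0573 and 0.00716 ± 0.0746. A difference of more than 2 combined SE was found for 4 of the 10 genes, where 21.7% of all genes had one, and the ratios of both conditions were normalized separately by the authors. HNRNPM differed by 0.45 ± 0.0814, HNRNPH3 by 0.29 ± 0.113 and HNRNPD by 0.20 ± 0.0843, all higher after siFBL, while HNRNPC was lower by -0.18 ± 0.0793 (log2, combined SE). Among the differences of all genes these lay at percentiles 84.5, 75.3, 68.8 and 32.2. The 10 genes had mean counts from 6099 upwards, against a minimum of 50 for all genes, so the shares past 2 combined SE are not like for like. Nothing is read from them about the hnRNP genes. HNRNPM remained below 0 after siFBL, at -0.12 ± 0.0626.

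**Figure D4:**
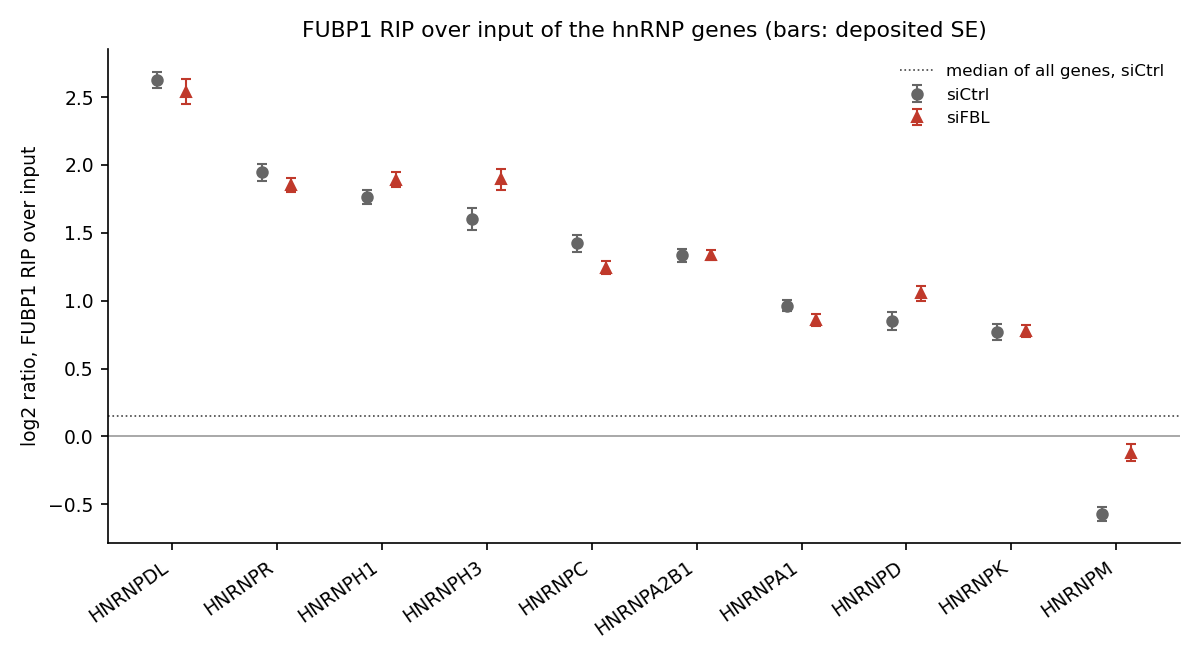
Log2 ratio of FUBP1 RIP over input for the 10 hnRNP genes in siCtrl (grey circles) and siFBL (red triangles), ordered by the siCtrl ratio, with error bars for the deposited SE. The dotted line is the siCtrl median of all genes, 0.154, and 9 of the 10 genes lay above 0 in both conditions, with HNRNPDL highest at 2.63 in siCtrl.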

How the data were processed

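Skipped exon events of HepG2 RNA-seq and gene-level FUBP1 RIP values were analysed. The authors trimmed reads with Cutadapt, aligned them to hg38 with HISAT2 and counted events with rMATS from junction reads. The deposited tables list inclusion and skipping read counts, 1 whole number per library, with effective lengths. Positions in these lists carry no replicate number, so libraries are named by position. For the RIP data the authors ran DESeq2 on RIP against input, which gave the deposited log2 fold change, its SE and a mean count, which is treated as a score without a shared scale. The methods name HTSeq and the labels featureCounts as the gene counter. The authors' p-values, FDR and test statistics, their level differences and 6 columns of inclusion levels were not used.

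Quasi-binomial models were fitted to the reads of all events of a table that averaged 10 or more junction reads in a library. Each fit takes in only the 2 groups compared. Dispersions were moderated with limma 3.58.1 in R 4.3.3 on a trend over the information of an event. The estimated prior degrees of freedom were infinite, so every event took the trend's dispersion. P-values were adjusted over all tested events. Other filters, priors and limma fits to the log2 odds (0.5 added to each count) and leaving out each library were tried as alternatives. The script was tested on simulated data. Exons were annotated with GENCODE 44, and 99.7% of 31955 listed exons lay between AG and GT or GC in the hg38 sequence. The text names every called member event and, per gene and table, the tested event with the most information (reads times inclusion share times skipping share). The members and lists were chosen with earlier results of these data known. Reads carry no molecular identifiers that the sources mention, so errors of single counts cover counting only.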

Additional observations from a re-analysis of the deposited data

How the results depend on the processing

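No paired analysis was possible because positions in the read lists carry no replicate number. Of the hnRNP events called under U3 ASO, 3 were called in the reported fit and 0 in limma fits to the log2 odds without and with a variance trend, where 0 of all events were called. As 2 of the 3 are the HNRNPDL events in the contrast that selected that gene, these counts are a description. With a prior trend on mean reads, or without a trend, 2 were called. The cause was not tested. With dispersions never below an event's own, an alternative chosen after seeing the data, 3 were called. After siFUBP1, 1 event was called with a minimum of 20 reads. Leaving out each library in turn gave 0 calls after siFUBP1 and siFBL throughout, and 2 to 3 under U3 ASO.

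Genes whose junction read sums did not overlap numbered 4 of 8 in each table, against 25.8%, 49.5% and 43.7% of all genes in the siFUBP1, U3 ASO and siFBL tables. With a library left out they numbered 4 to 6, 4 to 7 and 5 to 7. Without the 20 events with the most reads they numbered 4, 5 and 3. The shares of all genes under these settings are not given here, and with fewer libraries any gene overlaps less readily. Nothing is read from these counts about the members. The median RIP percentile of the 10 genes was 70.3, and 63.6 when only genes with mean counts from 500 upwards were ranked.

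Some changes that were not called turned sign with a library left out. They ranged from -0.0361 to 0.0762 for the HNRNPDL 105-base exon and from -0.00832 to 0.00646 for the HNRNPA1 156-base exon after siFUBP1. After siFBL they ranged from -0.249 to 0.646 for the HNRNPDL 105-base exon, from -0.0155 to 0.162 for the HNRNPK 72-base exon and from -0.167 to 0.0368 for the HNRNPM 45-base exon. The input libraries have the fewest listed junction reads and 2 libraries per group.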
